A study of Mus musculus with 4 samples.

Results

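The heat shock chaperones examined here are 10 of the 55450 genes in the count table, taken by name. They are the cytosolic genes *Hspa1a*, *Hspa1b*, *Hspa8*, *Hsph1*, *Dnajb1*, *Hsp90aa1*, *Hsp90ab1* and *Hspb1*, and the endoplasmic reticulum (ER) genes *Hspa5* and *Hsp90b1*. Each name occurred in 1 row of the table, and 9 of the 10 genes had enough counts to be tested. No cytosolic chaperone and no ER chaperone passed the edgeR test between loaded and unloaded cells. The widest difference was in *Hsp90b1*, the Hsp90 of the ER, whose RNA was at 0.79 times the unloaded level in loaded cells. It passed the threshold in DESeq2, with which the study called its differentially expressed genes, but not in edgeR.

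RNA-seq was performed on MLO-Y4 cells, a mouse cell line with osteocyte features, in 2 unloaded and 2 loaded samples. Loaded cells grew on collagen-coated silicone membranes (UniFlex plates) and were stretched equally in all directions for 12 h, with a strain of 20% and a frequency of 0.5 Hz. Unloaded cells grew on ordinary plastic plates and stood for the same 12 h in the incubator of the stretching system, so stretch and growth surface cannot be told apart. All samples come from 1 cell line, and nothing in the labels says that replicates were separate cultures, so p-values measure only the spread between these samples.

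Chaperones bind unfolded proteins and help them to fold. In the cytosol, Hsp70 proteins take up unfolded chains with the help of J-domain proteins and nucleotide exchange factors, Hsp90 proteins finish client proteins such as kinases and receptors, and the heat shock factor HSF1 drives their inducible genes when unfolded proteins accumulate. The ER has its own Hsp70 (*Hspa5*, also called BiP) and Hsp90 (*Hsp90b1*, also called GRP94), whose genes respond to the unfolded protein response through the factors ATF6 and XBP1. Osteocytes and their precursors secrete collagen, which is folded in the ER.

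Total counts per library ranged from 28941994 to 32185693, where a count of 3 is worth between 0.0930 and 0.103 CPM, the count of a gene scaled to its library's size. Counting error alone is covered by that floor. The members together took 1.03% and 0.967% of the counts in unloaded cells and 0.876% and 0.962% in loaded cells. Of the 11 osteocyte markers looked at, *Pdpn*, *Phex*, *Gja1*, *Spp1* and *Col1a1* were well expressed. The mature osteocyte markers *Dmp1* (12 to 14 counts), *Sost* (at most 4 counts) and *Mepe* (0 counts) were near or at 0. So were *Fgf23* (0 to 9 counts), *Bglap* (0 to 4 counts) and *Alpl* (0 to 14 counts). *Pdpn* was higher in loaded cells and *Spp1* lower, with log2 fold changes of 0.59 and -0.50 (edgeR adjusted p = 0.0334 and 0.0405). The summed level of 4 haematopoietic markers was 4.65 to 5.61 CPM in unloaded and 2.82 to 3.29 CPM in loaded cells. Nearly all of it was *Cd68* (162 and 141 counts in unloaded, 99 and 84 in loaded cells), and *Ptprc* had 0 to 3 counts. The summed level of 3 endothelial markers was 1.38 to 3.10 CPM over the 4 libraries, with *Cdh5* at 27 to 61 counts and *Kdr* at 0 and 0 counts in unloaded and 17 and 14 in loaded cells. Muscle and adipocyte markers summed to at most 0.861 CPM, with *Myog*, *Adipoq* and *Lep* at 0. Their part in the results below was not tested.

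Some of the chaperones carry a mark of their compartment at the end of the coding sequence. Cytosolic Hsp70 and Hsp90 proteins end in a short acidic motif that co-chaperones grip, and ER chaperones end in a signal that returns them to the ER. The last 8 codons and the stop codon are shown for the 7 members of the Hsp70 and Hsp90 families that carry one or the other, which leaves out *Hsph1*, *Dnajb1* and *Hspb1*, with the 4 codons of the motif in capitals (GENCODE M21 annotation of GRCm38, written on the gene's own strand, each within 1 exon).
Hspa1a, chr17:34970000-34970026, minus strand: ggacccaccatcGAGGAGGTGGATtag
Hspa1b, chr17:34957079-34957105, minus strand: ggacccaccatcGAGGAGGTGGATtag
Hspa8, chr9:40805091-40805117, plus strand: ggccccaccattGAAGAGGTGGATtaa
Hsp90aa1, chr12:110691540-110691566, minus strand: acatcacgcatgGAAGAAGTAGACtaa
Hsp90ab1, chr17:45568015-45568041, minus strand: gcctcgcgcatgGAAGAGGTGGATtaa
Hspa5, chr2:34776087-34776113, plus strand: gatacatcagaaAAAGATGAGTTGtag
Hsp90b1, chr10:86691102-86691128, minus strand: gaatctacagagAAGGATGAATTGtaa

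Some upstream sequences of the members also held a known element of their compartment. RefSeq promoters (GRCm38.p6) were found for 7 members, all but *Hspa8*, *Hsp90aa1* and *Hsp90ab1*, and the 250 bases before the start were searched on both strands. The elements are shown because they are the known binding letters of the factors of either compartment. They were chosen as elements already known for such genes, so finding them is not an independent result. The first is a heat shock element (HSE) of 2 units, GAANNTTC or TTCNNGAA, which 12.8% of 32851 promoters held. It was found in the cytosolic genes *Hspa1a*, *Hspa1b*, *Hsph1* and *Hspb1*, and not in *Dnajb1*, *Hspa5* or *Hsp90b1*. A longer HSE of 3 units, GAANNTTCNNGAA or TTCNNGAANNTTC, was found in 0.466% of promoters and in no member. The second is the ER stress response element (ERSE), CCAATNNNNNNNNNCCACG, whose CCAAT box alone was found in 33.8% of promoters. The whole element was found in 0.113% of promoters, in both ER members and in none of the 5 cytosolic members with a promoter. *Hsp90b1* held it on both strands, and its second match is written here as it reads on the gene's strand. Capitals mark the element.
Hspa1a, chr17:34972248-34972265, minus strand, HSE: tgctgGAAGATTCctggc
Hspa1b, chr17:34959330-34959347, minus strand, HSE: tgctgGAAGATTCctggc
Hsph1, chr5:149636357-149636374, minus strand, HSE: aatctTTCTCGAAggctc
Hspb1, chr5:135887797-135887814, plus strand, HSE: caagaGAAGTTTCcagat
Hspb1, chr5:135887817-135887834, plus strand, HSE: gggcaGAACCTTCctggc
Hspa5, chr2:34772020-34772048, plus strand, ERSE: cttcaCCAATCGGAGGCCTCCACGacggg
Hsp90b1, chr10:86705633-86705661, minus strand, ERSE: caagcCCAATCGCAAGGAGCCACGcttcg
Hsp90b1, chr10:86705528-86705556, minus strand, ERSE reversed: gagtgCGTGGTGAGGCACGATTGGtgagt
A match of these letters is a description of the sequence and not of binding. Counted from the RefSeq start, the first base of the HSE was at -104 in both *Hspa1a* and *Hspa1b*, whose 250 upstream bases differed at 3 positions. That of the ERSE was at -65 in *Hspa5* and at -212 and -107 in *Hsp90b1*. The RefSeq start can differ from the GENCODE M21 bounds given with each gene below. The ERSE of *Hspa5* and the HSE of *Hsph1* lie upstream of the RefSeq start but inside the GENCODE bounds of their genes.

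The members spanned a wide range of levels. Per kb of annotated exon, the mean level over the 4 libraries was 936 CPM for *Hsp90ab1*, 527 CPM for *Hsp90b1*, 472 CPM for *Hsp90aa1* and 342 CPM for *Hspa8*. It was 152 CPM per kb for *Hspa5*, 76.5 for *Hsph1*, 29.8 for *Dnajb1*, 10.8 for *Hspa1b* and 2.70 for *Hspa1a*. The constitutive *Hsp90ab1* was at the 99.9th percentile of the tested genes per kb, and the heat-inducible *Hspa1b* and *Hspa1a* were far below it, at the 68.3rd and 38.4th. Levels did not divide by inducibility. The inducible genes *Hsp90aa1* and *Dnajb1* were at the 99.7th and 87.7th percentiles. Neighbours in this order did not overlap over the 4 libraries, with the exception of *Hsp90b1* and *Hsp90aa1*. *Hsp90b1* ranged from 429 to 610 CPM per kb and *Hsp90aa1* from 427 to 497. By own counts, *Hsp90b1* was the higher of the pair within each library. With near-identical copies added, *Hsp90aa1* was at 2030 and 1954 CPM in unloaded and 1776 and 2046 CPM in loaded cells, not divided by length. *Hsp90b1* was at 2458 and 2288 CPM in unloaded and 1728 and 2023 CPM in loaded cells. The order of the pair was thus reversed in both loaded libraries. The place of *Hspa8* holds for its own counts and its merged exon length alone. With the counts of its near-identical copies, described with that gene, it was at 589 to 642 CPM per kb of its own exons. That lay above *Hsp90aa1* and overlapped *Hsp90b1*. The merged exons of *Hspa8* span 4.30 kb, against 2394 bases for the transcript whose coding end is shown above. For *Hsp90aa1* these lengths are 3.93 kb and 3281 bases, so the order can change with the length used.

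**Figure D1:**
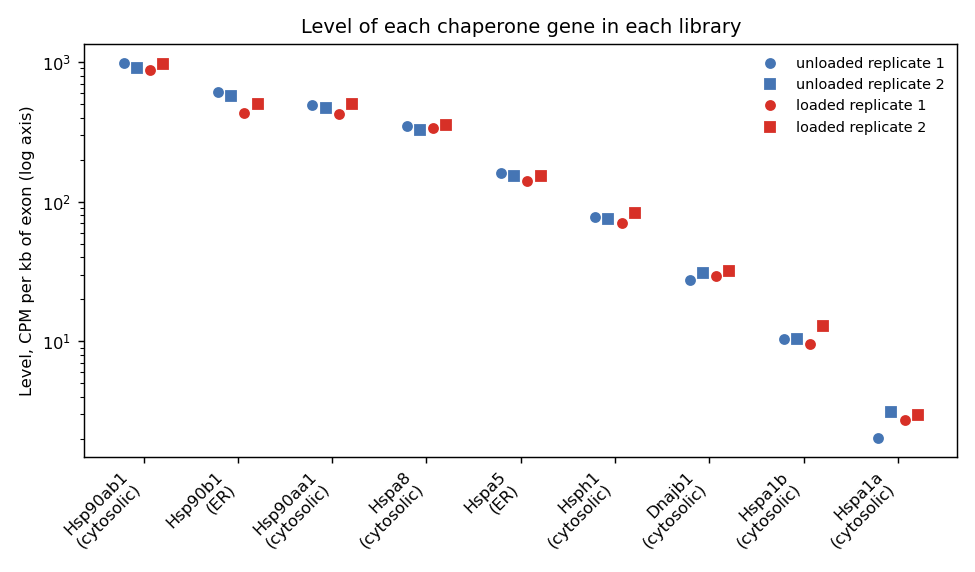
Level of the 9 expressed chaperone genes in each library, in CPM per kb of exon on a log axis, with unloaded replicates in blue and loaded replicates in red. Levels run from a mean of 936 CPM per kb for Hsp90ab1 to 2.70 for Hspa1a, and Hsp90b1 is the one gene whose loaded points both lie under its unloaded points.

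The inducible cytosolic chaperones were compared first, since they are the classical readout of HSF1. *Hspa1a* (ENSMUSG00000091971.3, chr17:34969190-34972156, minus strand, a single exon) encodes the stress-inducible Hsp70. It had 175 and 279 counts in unloaded cells and 260 and 260 in loaded cells, or 6.03, 9.21, 8.06 and 8.72 CPM. Both loaded values lay between the unloaded ones. In bulk samples, a change in the share of cells that express a gene and a change in its RNA per cell cannot be told apart. The log2 fold change was 0.14 (SE 0.24, 95% interval -0.45 to 0.73, edgeR quasi-likelihood adjusted p = 0.852).

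*Hspa1b* (ENSMUSG00000090877.3, chr17:34956436-34959238, minus strand, a single exon) encodes a nearly identical Hsp70 from the neighbouring locus. Its counts were 847 and 878 in unloaded and 865 and 1075 in loaded cells, or 29.2, 29.0, 26.8 and 36.1 CPM. The unloaded pair lay between the loaded pair, and the log2 fold change was 0.11 (SE 0.15, 95% interval -0.26 to 0.49, edgeR adjusted p = 0.801). The genes share 99.23% of 2201 bases in their longest matching stretch. Over the whole transcripts, 91.43% of 2729 aligned bases were identical, with a longest identical run of 638 bases. The split of reads between them is therefore uncertain. Summed before the fit, they had 35.2 and 38.2 CPM in unloaded and 34.9 and 44.8 CPM in loaded cells, and the sum had a difference of 0.12 on the log2 scale (edgeR adjusted p = 0.770). *Hspa1a* took 17.1% and 24.1% of the summed counts in unloaded and 23.1% and 19.5% in loaded cells.

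*Hsph1* (ENSMUSG00000029657.15, chr5:149614287-149636376, minus strand, 19 merged exons) encodes Hsp110, an exchange factor of Hsp70. It was at 566 and 547 CPM in unloaded and 507 and 604 CPM in loaded cells. The loaded replicates lay on either side of the unloaded pair, and the log2 fold change was -0.00087 on a mean of 556 CPM in either group (SE 0.09, 95% interval -0.22 to 0.22, edgeR adjusted p = 0.998).

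*Dnajb1* (ENSMUSG00000005483.10, chr8:83608193-83612653, plus strand, 4 merged exons) encodes the inducible J-domain partner of Hsp70. Its values were 87.7 and 99.1 CPM in unloaded and 94.0 and 101 CPM in loaded cells. The groups overlapped, and the log2 fold change was 0.06 (SE 0.09, 95% interval -0.17 to 0.30, edgeR adjusted p = 0.818).

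*Hspb1* (ENSMUSG00000004951.10, chr5:135887919-135889563, plus strand, 2 merged exons) encodes the small heat shock protein Hsp25 and was listed at 0 counts in all 4 libraries. It was therefore not tested. A count of 0 allows a level of up to 0.0930 to 0.103 CPM per library for reads that could be assigned to it. Its near-identical copies *Gm9817* (99.8% over 493 bases) and *Hsp25-ps1* (99.36% over 630 bases) were listed at 0 as well. Whether reads that match all of these genes were discarded was not tested, so the zeros do not show that *Hspb1* was silent. Among the other small heat shock protein genes, *Hspb8* was at 125 ± 3.45 CPM (SD, n = 2) in unloaded and 143 ± 15.8 CPM in loaded cells.

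The abundant cytosolic chaperones were compared next. *Hspa8* (ENSMUSG00000015656.17, chr9:40800984-40810087, plus strand, 3 merged exons) encodes Hsc70, the housekeeping Hsp70. It was at 1495 and 1395 CPM in unloaded and 1458 and 1535 CPM in loaded cells, and the groups overlapped. The log2 fold change was 0.05 (SE 0.06, 95% interval -0.09 to 0.19, edgeR adjusted p = 0.757). Reads of *Hspa8* can be shared with 12 pseudogenes and the lincRNA *Gm26825*, each at least 90% identical over 300 or more bases. The pseudogene *Gm15459*, at 99.74% identity over 1941 bases, alone had 22605 to 25323 counts per library beside 42286 to 47045 for *Hspa8*. Together the copies held 43.9% and 45.9% of the summed counts in unloaded and 42.5% and 44.4% in loaded cells. With the copies added, *Hspa8* was at 2665 and 2578 CPM in unloaded and 2535 and 2762 CPM in loaded cells (log2 fold change 0.015, edgeR adjusted p = 0.939).

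*Hsp90aa1* (ENSMUSG00000021270.13, chr12:110690605-110702728, minus strand, 11 merged exons) encodes the inducible form of cytosolic Hsp90. It was at 1944 and 1844 CPM in unloaded and 1678 and 1952 CPM in loaded cells. The loaded replicates enclosed the unloaded ones, and the log2 fold change was -0.06 (SE 0.08, 95% interval -0.26 to 0.13, edgeR adjusted p = 0.788). Its copies held 4.20% to 5.66% of the summed counts, and adding them left the log2 fold change at -0.06.

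*Hsp90ab1* (ENSMUSG00000023944.14, chr17:45567775-45573271, minus strand, 9 merged exons) encodes the constitutive form of cytosolic Hsp90 and was the most abundant member. Its values were 2965 and 2734 CPM in unloaded and 2645 and 2882 CPM in loaded cells, and the groups overlapped. The log2 fold change was -0.04 (SE 0.06, 95% interval -0.20 to 0.11, edgeR adjusted p = 0.813).

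The ER chaperones were compared last. *Hspa5* (ENSMUSG00000026864.13, chr2:34771970-34777547, plus strand, 7 merged exons) encodes BiP, the ER Hsp70 and the usual marker of the unfolded protein response. It was at 674 and 648 CPM in unloaded and 595 and 648 CPM in loaded cells. One loaded replicate was the lowest of the 4 libraries and the other lay within the unloaded range. The log2 fold change was -0.09 (SE 0.06, 95% interval -0.25 to 0.07, edgeR adjusted p = 0.591).

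*Hsp90b1* (ENSMUSG00000020048.13, chr10:86690209-86705509, minus strand, 16 merged exons) encodes GRP94, the ER Hsp90, which folds integrins, Toll-like receptors and insulin-like growth factors. It had 71379 and 69334 counts in unloaded and 55739 and 60303 in loaded cells, or 2458, 2288, 1728 and 2023 CPM. Both loaded libraries lay under both unloaded ones. The mean was 2373 ± 120 CPM (SD, n = 2) in unloaded and 1875 ± 209 CPM in loaded cells, so that the log2 fold change was -0.34 (SE 0.08, 95% interval -0.54 to -0.13). The unadjusted p of 0.00662 was the 697th smallest of the 16269 tested genes and gave an adjusted p of 0.154 in edgeR. DESeq2 gave a log2 fold change of -0.33 with an adjusted p of 0.00617, which passed the threshold of 0.01, and an edgeR fit blocked on replicate number gave an adjusted p of 0.293. Without loaded replicate 1, the lowest library, the log2 fold change was -0.23.

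*Hsp90b1* overlaps 3 other annotated genes, and the sources used here do not state whether reads were counted by strand. The opposite-strand pseudogene *1810014B01Rik* shares 415 exonic bases with it and had 1727 to 1898 counts per library. The miRNA gene *Gm25745*, on the same strand, had 2532 and 2800 counts in unloaded and 2492 and 2490 in loaded cells. *Gm15344*, also on the same strand, had 47 to 84 counts. No near-identical copy of *Hsp90b1* or *Hspa5* was found among the annotated transcripts.

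**Figure D2:**
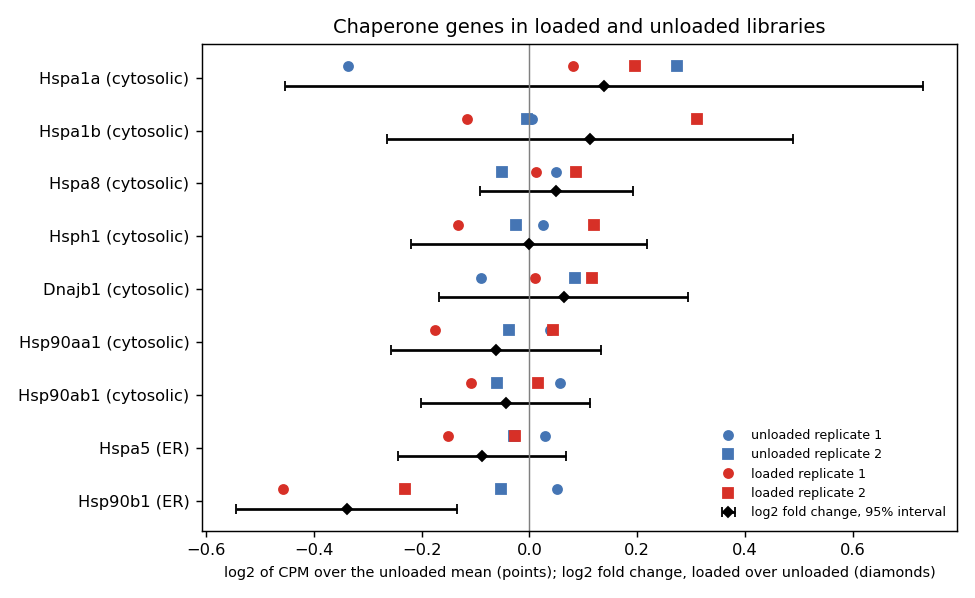
Each chaperone's CPM in every library as log2 over its unloaded mean (points, blue unloaded and red loaded, circles replicate 1 and squares replicate 2), with the edgeR log2 fold change and its 95% interval (black diamonds and bars, n = 2 per group). The interval of Hsp90b1, -0.54 to -0.13, is the one that leaves out 0.

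Counted over the members, 0 of the 9 tested passed an adjusted p under 0.01 in edgeR, beside 0.0983% of all 16269 tested genes. At an adjusted p under 0.05, 0 of the 9 passed in edgeR, beside 0.904% of all genes. DESeq2 called 1 member at 0.01, *Hsp90b1*, which was lower, beside 2.91% of the 12484 genes it gave an adjusted p. At an unadjusted p under 0.05, 1 member passed in edgeR, which was lower, beside 2333 genes in all (7.46% of the tested genes lower and 6.88% higher). The libraries of the groups did not overlap for 1 member, which was lower in loaded cells, and for no member in the other direction. Over all tested genes the loaded libraries lay wholly under the unloaded ones in 24.5% and wholly above them in 22.1%. For the members in the cytosol, the upper ends of the 95% intervals ran from 0.11 for *Hsp90ab1* to 0.73 for *Hspa1a* on the log2 scale, and the lower ends from -0.45 for *Hspa1a* to -0.09 for *Hspa8*. A p that misses the threshold does not show that levels were equal.

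The compartments were then set side by side. Of the 7 tested cytosolic members, 4 had a positive and 3 a negative log2 fold change, with a median of 0.05 and a range from -0.06 to 0.14. Both ER members had a negative value, with a median of -0.21. The median over all tested genes was -0.01, with quartiles at -0.20 and 0.16. The cytosolic values thus all lay between the quartiles of all genes, as did *Hspa5*, whereas *Hsp90b1* was at the 15.7th percentile.

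Ratios taken within a library do not depend on its scaling. The summed CPM of the cytosolic members was 7094 and 6657 in unloaded and 6417 and 7118 in loaded cells, and that of the ER members 3132 and 2936 in unloaded and 2322 and 2672 in loaded cells. Their ratio was 2.27 in both unloaded libraries, and 2.76 and 2.66 in the loaded ones. The spread between replicates was smaller in this ratio than in either sum, since the 2 sums moved together within each group. Unloaded replicate 1 was the higher unloaded library in both sums, and loaded replicate 1 the lower loaded one. The constitutive Hsp90 against its ER counterpart, *Hsp90ab1* over *Hsp90b1*, gave 1.21 and 1.20 in unloaded and 1.53 and 1.42 in loaded cells. *Hsp90aa1* over *Hsp90b1* gave 0.791 and 0.806 in unloaded and 0.971 and 0.964 in loaded cells. The Hsp70 pair, *Hspa8* over *Hspa5*, gave 2.22 and 2.15 in unloaded and 2.45 and 2.37 in loaded cells. In all of these ratios the groups did not overlap. They are not separate contrasts, since *Hsp90b1* is the denominator of both Hsp90 ratios and made up 74.4% to 78.5% of the ER sum in each library, so that its own difference between the groups enters them. The ratio of *Hspa8* to *Hspa5* alone does not contain it. With 2 libraries against 2, a two-sided exact permutation test cannot give a p under 0.333, so these are descriptions. Within the ER, *Hspa5* over *Hsp90b1* was 0.274 and 0.283 in unloaded and 0.344 and 0.320 in loaded cells.

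**Figure D3:**
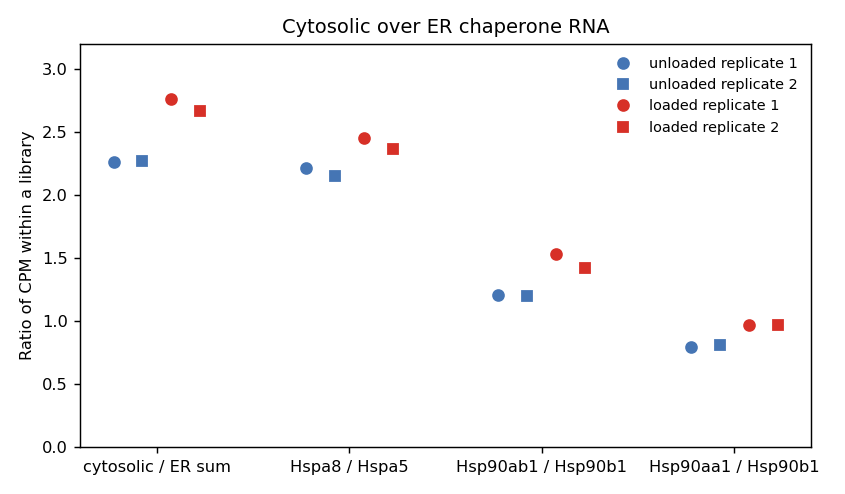
Ratio of cytosolic to ER chaperone CPM within each library, for the summed members and for 3 gene pairs, of which 2 share Hsp90b1 (blue unloaded, red loaded; circles replicate 1, squares replicate 2). Each ratio is higher in both loaded libraries, with 2.76 and 2.66 against 2.27 and 2.27 for the sums.

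Other genes of the ER folding machinery had the same sign as *Hsp90b1* more often than not. In a list of 24 further ER chaperones and unfolded protein response genes, all were tested, 18 had a negative and 6 a positive log2 fold change, and the median was -0.19. None passed an adjusted p under 0.01 or 0.05 in edgeR. At an unadjusted p under 0.05, 10 were lower and 2 were higher, beside 7.46% and 6.88% of all tested genes. The groups did not overlap in 16 genes that were lower (66.7%, beside 24.5% of all genes) and in 2 that were higher (8.33%, beside 22.1%). The median ran from -0.23 to -0.16 over the alternative fits, and between 18 and 19 of the genes were negative in each. This list and those below were chosen with earlier results of these data known. Their genes were measured in the same 4 libraries as *Hsp90b1*, so they are not independent support for it. The shares over all genes also cover genes at low levels, whereas most of this list was well expressed.

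The smallest p of that list belonged to *Pdia4*, an ER disulfide isomerase. It was at 234 and 237 CPM in unloaded and 165 and 185 CPM in loaded cells, with no overlap. The log2 fold change was -0.43 (SE 0.08, 95% interval -0.62 to -0.24), with an adjusted p of 0.0846 in edgeR and 0.000501 in DESeq2, the one call of DESeq2 at 0.01 in the list.

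*Ern1*, the stress sensor IRE1 that splices *Xbp1* RNA, was next, at 98.4 and 93.5 CPM in unloaded and 76.7 and 73.0 CPM in loaded cells. The groups did not overlap, and the log2 fold change was -0.36 (SE 0.08, edgeR adjusted p = 0.143).

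A few genes of the list were picked out after their values were seen. The other disulfide isomerases *Pdia6*, *Pdia3* and *P4hb* had log2 fold changes of -0.31, -0.22 and -0.22, and the lectin chaperone *Calr* had -0.19. The groups did not overlap in any of these 4 genes. They did overlap in the other lectin chaperone, *Canx* (log2 fold change -0.06). *Dnajc3*, a J-domain partner of *Hspa5*, had -0.31 and *Creld2* -0.32. *Xbp1* was at 71.4 and 66.5 CPM in unloaded and 55.1 and 35.4 CPM in loaded cells, with loaded replicate 2 far under the others. In the opposite direction, *Manf*, a secreted ER stress protein, had a log2 fold change of 0.26 and *Dnajb9*, an *Hspa5* partner induced by XBP1, of 0.24, and the groups did not overlap in either. The remaining positive genes of the list were *Sel1l*, *Syvn1*, *Hyou1* and *Atf6*, at 0.21, 0.13, 0.11 and 0.01, with overlapping groups.

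The enzymes and chaperones that fold collagen in the ER showed a similar sign. Of 9 genes, 7 were negative and 2 positive, with a median of -0.18. The loaded libraries lay wholly under the unloaded ones in 6 (66.7%, beside 24.5% of all genes) and wholly above them in 0 (beside 22.1%). None was called by edgeR at 0.05. *P4ha2*, a subunit of prolyl hydroxylase, was at 82.8 and 78.7 CPM in unloaded and 60.8 and 63.3 CPM in loaded cells (log2 fold change -0.38, edgeR adjusted p = 0.141). *Plod1*, a lysyl hydroxylase, was at 164 and 162 CPM in unloaded and 135 and 142 CPM in loaded cells (log2 fold change -0.24, edgeR adjusted p = 0.198). The groups overlapped in *Serpinh1*, the collagen chaperone Hsp47 (log2 fold change -0.09), which was looked at after the values were seen.

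Among the cytosolic partners, the heat shock factors themselves were not called. *Hsf1*, the factor that drives the stress-inducible members, was at 48.9 and 44.6 CPM in unloaded and 39.4 and 41.5 CPM in loaded cells (log2 fold change -0.21, SE 0.10, edgeR adjusted p = 0.421). *Hsf5* had only 16 to 48 counts per library (log2 fold change 0.92, edgeR adjusted p = 0.454). Over the 5 genes of that list, which also holds *Hsbp1*, a binding protein of the factors and not a factor, the median was 0.04. The groups did not overlap in 2 that were lower and 2 that were higher (40% each, beside 24.5% and 22.1% of all genes).

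J-domain proteins of the cytosol had mostly positive values, 7 of 9, with a median of 0.15. The groups did not overlap in 4 that were higher (44.4%, beside 22.1% of all genes) and in 0 that were lower (beside 24.5%). None passed in edgeR. *Dnajb6*, which holds back protein aggregation, was at 148 and 132 CPM in unloaded and 168 and 192 CPM in loaded cells, with no overlap. Its log2 fold change was 0.36 (SE 0.10, 95% interval 0.12 to 0.59), with an adjusted p of 0.181 in edgeR and 0.0202 in DESeq2. *Dnaja2* was at 264 and 262 CPM in unloaded and 291 and 309 CPM in loaded cells (log2 fold change 0.19, edgeR adjusted p = 0.251).

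Of 7 further Hsp70 and Hsp110 genes, 6 were positive, with a median of 0.12. The groups did not overlap in 1 that was higher (14.3%, beside 22.1% of all genes) and in 0 that were lower (beside 24.5%). *Hspa4l*, an Hsp110 protein, was at 364 ± 6.00 CPM (SD, n = 2) in unloaded and 406 ± 27.2 CPM in loaded cells (log2 fold change 0.16, edgeR adjusted p = 0.367). *Hspa12a*, a distant Hsp70 relative, was at 6.42 ± 1.33 CPM in unloaded and 8.56 ± 1.89 CPM in loaded cells (log2 fold change 0.41, edgeR adjusted p = 0.511).

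The 19 co-chaperones of Hsp70 and Hsp90 were divided, with 8 positive and 11 negative and a median of -0.01. The groups did not overlap in 2 that were higher (10.5%, beside 22.1% of all genes) and 5 that were lower (26.3%, beside 24.5%). *Hikeshi*, the carrier that brings Hsp70 into the nucleus under heat, was at 47.7 and 44.3 CPM in unloaded and 33.4 and 37.2 CPM in loaded cells. Its log2 fold change was -0.38 (SE 0.11, edgeR adjusted p = 0.189). *Ppid*, an Hsp90-bound cyclophilin, was at 171 and 174 CPM in unloaded and 141 and 152 CPM in loaded cells (log2 fold change -0.23, edgeR adjusted p = 0.222).

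Of 8 other small heat shock proteins, 7 were tested and 5 were positive, with a median of 0.13. The smallest p belonged to *Hspb8*, at 0.19 on the log2 scale, and *Cryab*, the alpha-B crystallin, at 0.27 (edgeR adjusted p = 0.424 and 0.494). The 8 subunits of the cytosolic chaperonin CCT, which folds actin and tubulin, lay in a narrow band from -0.02 to 0.07 on the log2 scale, with *Cct5* at 0.07 and *Cct6a* at 0.04 (edgeR adjusted p = 0.641 and 0.850). Mitochondrial chaperones and proteases numbered 10, with 6 positive and a median of 0.03. The 2 with the smallest p were *Grpel1*, the exchange factor of mitochondrial Hsp70, at 0.20, and *Hspa9*, the mitochondrial Hsp70 itself, at 0.14 (edgeR adjusted p = 0.353 and 0.383). The groups did not overlap in 1 higher and 1 lower small heat shock protein gene (14.3% each) and 1 higher CCT gene (12.5%). Among mitochondrial genes, 2 were higher and 1 was lower without overlap (20% and 10%). Over all tested genes these shares were 22.1% higher and 24.5% lower. None of the genes in these lists was called by edgeR at 0.05.

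**Figure D4:**
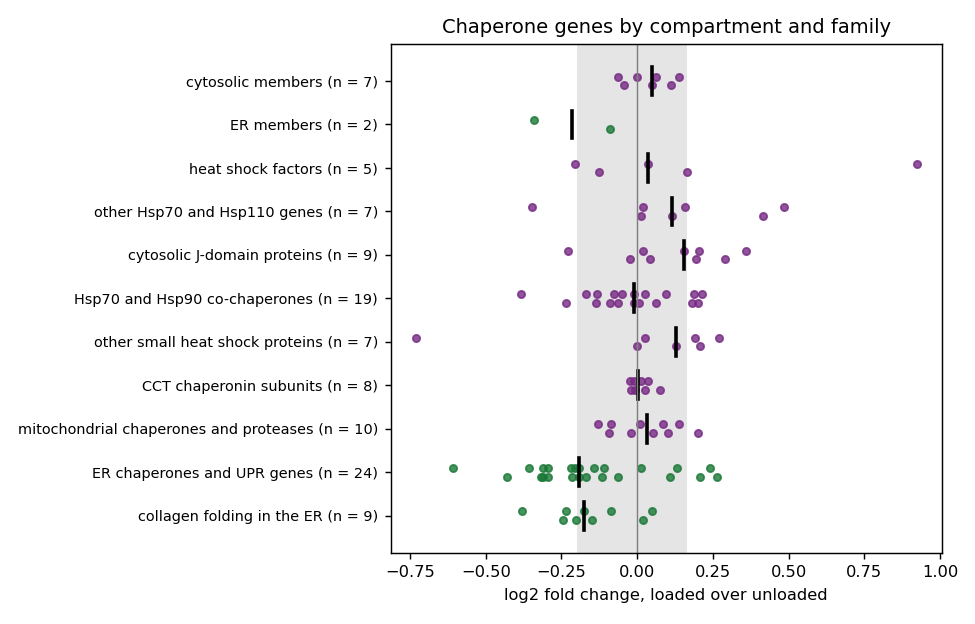
Log2 fold change of every tested gene in the members and the 9 chaperone lists, with black bars at each median and the grey band between the quartiles of all genes (-0.20 to 0.16). ER genes are green and others purple. The medians of the ER lists are -0.19 and -0.18, and those of the lists of other compartments lie between -0.01 and 0.15.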

How the data were processed

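Reads were trimmed and filtered by the authors, aligned to mm10 with HISAT2 2.1.0, assembled with StringTie 1.3.5 and turned into gene counts with its prepDE script, per the paper's methods and the submitters' processing notes. The deposited counts are whole numbers, 1 per gene and library, without normalization. A count made from assembled coverage can split reads between near-identical genes. The annotation release and strandedness are not given in the sources used here. All 55450 identifiers match GENCODE M21 (GRCm38), which gave coordinates, exons and sequence.

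Samples were grouped by their treatment label. Genes were filtered with filterByExpr (count minimum 10, 16269 kept), scaled by TMM and tested with edgeR 4.0.16 (quasi-likelihood F test, R 4.3.3). P-values were adjusted by Benjamini-Hochberg over the 16269 genes. The threshold of 0.01 is the study's, which applied it to adjusted p-values of DESeq2 and not of edgeR. CPM are TMM-scaled, and SDs are over 2 replicates. The SE is the size of a log2 fold change over the square root of F. In a single simulated data set, edgeR called 14% of the genes changed by 0.5 on the log2 scale and 77% of those changed by 1. DESeq2 called 18% and 76% of them. The changed genes were drawn over a wide range of counts, with a spread set by level alone. These rates are therefore not those of the abundant members, and they do not bear on why edgeR and DESeq2 differed for *Hsp90b1*. Every member's difference was smaller than 0.5. Copies were sought with BLAST 2.17.0 (identity of at least 90% over 300 bases), and motifs with Python 3.11.15. Alternatives were other scaling and filters, DESeq2 1.42.0, limma-voom (limma 3.58.1), the replicate block, each library left out, and *Hspa1a* and *Hspa1b* summed. The sum with near-identical copies was added after seeing the data.

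All members are named. Of each list, members with an adjusted p under 0.05 (at most 4), or else the 2 with the smallest p, are named, and other genes are marked. Members and lists were chosen with earlier results of these data known.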

Additional observations from a re-analysis of the deposited data

How the results depend on the processing

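*Hsp90b1* and *Hspa5* had negative log2 fold changes in all 14 alternatives (-0.46 to -0.23 and -0.15 to -0.025), and *Hspa8* positive ones (0.00018 to 0.11). Members called numbered 0 in all alternatives but DESeq2, which called 1, *Hsp90b1* (-0.33, adjusted p = 0.00617). The cause was not tested. Over the 14 alternatives the adjusted p of *Hsp90b1* ran from 0.00617 to 0.357. Genes called in the whole table, 16 at 0.01, numbered 147 at 0.05, 0 with no filter on low counts, 29 with at least 10 counts in every library, 363 in DESeq2, 0 with the replicate block, and 0 to 58 with 1 library left out (0 without loaded replicate 1 or loaded replicate 2, 50 without unloaded replicate 1, 58 without unloaded replicate 2). With the replicate block, *Hsp90b1* had a log2 fold change of -0.34 (adjusted p = 0.293). The deviations of same-numbered libraries correlated at -0.06 over genes, so the numbers were not treated as pairs. The sign of *Hsph1* turned with RLE factors (0.00828), with at least 10 counts in every library (0.00261) and in DESeq2 (0.0067). With 1 library left out, log2 fold changes ran from -0.13 to 0.48 for *Hspa1a*, -0.12 to 0.31 for *Hspa1b*, -0.13 to 0.12 for *Hsph1*, -0.014 to 0.15 for *Dnajb1*, -0.18 to 0.046 for *Hsp90aa1* and -0.11 to 0.023 for *Hsp90ab1*, so their direction depends on single libraries. Reversals came without unloaded replicate 1 (*Hspa1a* -0.13, *Hsph1* 0.031, *Dnajb1* -0.014, *Hsp90ab1* 0.023), without loaded replicate 1 (*Hsph1* 0.12, *Hsp90aa1* 0.046, *Hsp90ab1* 0.019) and without loaded replicate 2 (*Hspa1b* -0.12). The ER median was negative in all 14 alternatives (-0.31 to -0.13). The cytosolic median was positive in 13 and negative in 1, without loaded replicate 2 (-0.11, with 0.12 the highest of the libraries left out). A fit with 1 library in a group assumes that it varies like the other group. With 2 replicates per group, depth is not the limit for the abundant members, and the spread between replicates is.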
